A study of Mus musculus with 4 samples.

Results

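Aminoacyl-tRNA synthetases are described here as 2 groups of genes in mouse pancreatic islet cells: 19 that make cytosolic enzymes and 16, with symbols ending in 2, that make mitochondrial ones. The genes were taken from a list of symbols, and all 35 were found among the 32285 genes of the count tables. This gene family was chosen with earlier results of these data known. Cytosolic methionyl-tRNA synthetase was not on the list. The data are 4 single-cell RNA libraries of wild-type islets from 8-week-old male C57BL6J mice, made by a droplet method that tags RNA molecules at the 3' end with a unique molecular identifier (UMI). Islets were cultured for 24 h in 3.9 or 11.1 mM glucose with 1 mM imeglimin, a glucose-lowering drug, or with its DMSO vehicle, and were then dispersed with Accutase. Each of the 4 conditions is 1 library, so no difference below has a replicate check and none was tested. How many mice were pooled is not given in the sources used here.

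Each synthetase joins 1 amino acid to its own tRNAs, and the charged tRNAs feed the ribosome. Cells carry separate nuclear genes for most mitochondrial enzymes, which serve the ribosomes that translate the proteins encoded in mitochondrial DNA. When amino acids run short or the endoplasmic reticulum is under stress, kinases that slow translation also raise the transcription factor ATF4, which with C/EBP partners activates many cytosolic synthetase genes.

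The composite element of ATF4 and C/EBP was searched as TGATGNAAN on both strands (NTTNCATCA when read from the other strand). The RefSeq promoter table (build GRCm38.p6, 250 bases before to 50 after each start) held windows for 26 of the 35 genes. No window was matched for Cars, Hars, Lars, Nars, Rars, Vars, Wars, Hars2 and Pars2. The element was found for 5 of 12 cytosolic genes, Aars, Gars, Iars, Tars and Yars, and for 0 of 14 mitochondrial genes, against 4.5% of all 27025 genes with a window. Stretches from 150 bases before to 30 after the start are shown for these 5 genes, with the matches in capitals. Eprs and Sars, which held no match, are shown because they had the highest imeglimin ratios in beta-like cells at 11.1 mM glucose.
Aars (chr8:111033692-111033871, plus strand): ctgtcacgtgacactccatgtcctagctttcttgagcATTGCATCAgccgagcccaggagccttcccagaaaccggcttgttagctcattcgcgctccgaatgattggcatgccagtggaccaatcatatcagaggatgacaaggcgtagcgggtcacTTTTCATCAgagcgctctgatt
Gars (chr6:55037851-55038030, plus strand): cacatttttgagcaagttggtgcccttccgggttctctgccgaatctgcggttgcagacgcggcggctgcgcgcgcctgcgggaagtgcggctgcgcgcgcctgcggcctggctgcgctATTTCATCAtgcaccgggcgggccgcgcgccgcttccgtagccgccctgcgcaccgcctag
Iars (chr13:49681980-49682159, plus strand): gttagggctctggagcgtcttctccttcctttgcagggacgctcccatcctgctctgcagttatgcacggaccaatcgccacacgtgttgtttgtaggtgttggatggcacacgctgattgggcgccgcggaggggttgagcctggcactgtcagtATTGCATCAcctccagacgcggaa
Tars (chr15:11399629-11399808, minus strand): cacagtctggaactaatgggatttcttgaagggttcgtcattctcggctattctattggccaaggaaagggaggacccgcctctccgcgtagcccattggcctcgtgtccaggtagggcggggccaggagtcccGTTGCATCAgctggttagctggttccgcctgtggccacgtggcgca
Yars (chr4:129189753-129189932, plus strand): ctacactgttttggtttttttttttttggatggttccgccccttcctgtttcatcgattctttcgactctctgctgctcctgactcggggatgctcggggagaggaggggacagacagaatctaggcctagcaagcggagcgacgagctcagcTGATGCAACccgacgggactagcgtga
Eprs (chr1:185362894-185363073, plus strand): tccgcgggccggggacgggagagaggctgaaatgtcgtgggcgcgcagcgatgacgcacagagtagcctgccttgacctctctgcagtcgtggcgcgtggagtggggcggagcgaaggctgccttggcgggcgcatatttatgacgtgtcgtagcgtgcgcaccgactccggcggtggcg
Sars (chr3:108445230-108445409, minus strand): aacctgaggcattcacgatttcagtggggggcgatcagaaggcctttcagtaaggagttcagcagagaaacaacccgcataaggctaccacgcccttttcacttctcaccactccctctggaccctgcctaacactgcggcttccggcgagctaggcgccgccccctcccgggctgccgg
Aars held 2 matches, 1 upstream of its start and 1 just after it. In the other 4 genes the match began within 31 bases of the start. A match is a run of letters and not a measured binding site.

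Cells were sorted into classes by the RNA of marker genes, and each class name carries "-like" for that reason. Per library, 7166 to 8755 cells were kept, with medians of 8832 to 12035 UMIs. Libraries held 91245564 to 106092232 UMIs, and any pair of them shared 15 to 24 kept cell barcodes. The doublet caller marked 0 cells in every library, so cells with much RNA of another class's hormone were left out instead. Not every hormone was checked in each class. Beta-like cells numbered 4573 with vehicle and 4334 with imeglimin at 3.9 mM, and 4987 and 5436 at 11.1 mM. All 9 beta markers were detected in them, and the summed alpha, pp, duct, delta and endothelial markers were at most 780, 654, 549, 76.6 and 5.20 CPM (UMIs per 1000000 UMIs of the class). The insulin share of the RNA differed between libraries: Ins2 stood at 77431 CPM (vehicle) and 182980 CPM (imeglimin) at 3.9 mM, and at 248030 and 237310 CPM at 11.1 mM. Levels were scaled within each class by the trimmed mean of M-values (TMM), and the median of all genes compared is given beside most groups of ratios. Beta-like cells also clustered by library: 91.1% of those with vehicle at 3.9 mM were in cluster 1, 89.6% of those with imeglimin at 3.9 mM in cluster 2, 72.4% of those with vehicle at 11.1 mM in cluster 17, and 41.3% and 38.9% of those with imeglimin at 11.1 mM in clusters 18 and 21.

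In beta-like cells the cytosolic genes summed to 2094 and 2353 CPM at 3.9 mM and to 1475 and 1949 CPM at 11.1 mM, vehicle first and imeglimin second at each glucose level. The vehicle library at 11.1 mM was the lowest of the 4. The imeglimin library at 3.9 mM was the highest with TMM scaling, but in plain CPM the vehicle library at 3.9 mM was (2547 against 2308 plain CPM). The mitochondrial genes summed to 262 and 259.9 CPM at 3.9 mM and to 200.3 and 195 CPM at 11.1 mM, vehicle first. Without Lars2 they summed to 172 and 159.6 CPM at 3.9 mM and to 136 and 146 CPM at 11.1 mM, with log2 ratios of imeglimin to vehicle of -0.11 (-0.15 to -0.07) at 3.9 mM and 0.10 (0.06 to 0.14) at 11.1 mM. The medians of all genes compared were 0.04 and 0.10. Leaving hormone and mitochondrially encoded genes out of the total moves every ratio at 11.1 mM by -0.19, which turns the second of these ratios below 0. All 19 cytosolic genes reached the minimum of 5 CPM on average, as did 10 of the 16 mitochondrial genes. Aars2, Mars2, Pars2, Sars2, Vars2 and Wars2 averaged 1.63 to 4.91 CPM and are not compared. Fewer cells expressing a gene and less RNA per cell cannot be told apart in these sums.

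**Figure D1:**
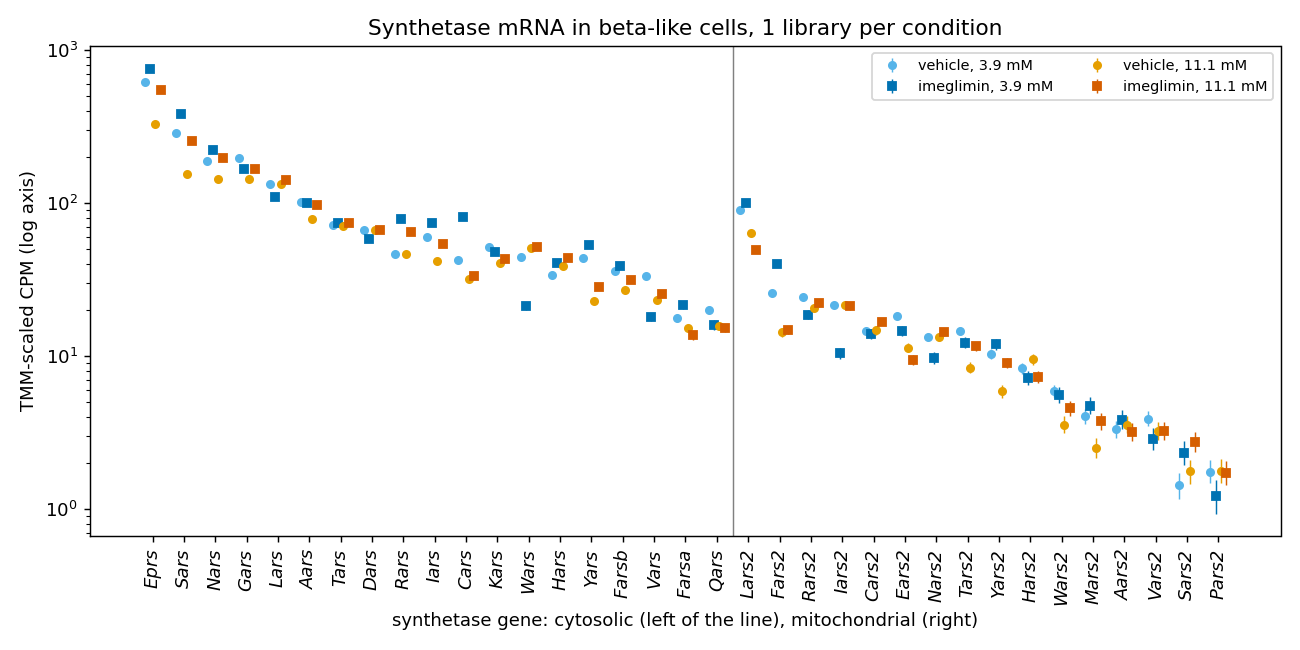
TMM-scaled CPM (log axis) of the 35 synthetase genes in beta-like cells, 1 point per library with its 95% counting interval, cytosolic genes left of the line and mitochondrial genes right of it, each in order of mean level. Eprs and Sars are lowest in the library with vehicle at 11.1 mM glucose (328 and 155 CPM), and Wars and Iars2 are lowest in the library with imeglimin at 3.9 mM (21.3 and 10.4 CPM).

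Imeglimin was compared with vehicle at 11.1 mM glucose first. Of the 19 cytosolic genes, 16 had higher levels with imeglimin, 2 of them by at least 1.5-fold, and 0 were lower by that much. Over all 9465 genes compared, 63.7% were higher, 6.0% at least 1.5-fold higher and 4.80% at least 1.5-fold lower. The median log2 ratio was 0.18 for the cytosolic genes, 0.08 for the mitochondrial ones and 0.10 for all genes, and 11 of the 19 cytosolic genes lay above the median of all genes. Leaving hormone and mitochondrially encoded genes out of the total moved every ratio by -0.19, so that the cytosolic median was -0.016 and neither gene was past 1.5-fold.

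Eprs, a single protein with the glutamyl and the prolyl enzyme that belongs to the multisynthetase complex (chr1:185363044-185428360 in GENCODE vM21 on GRCm38), stood at 617 and 752 CPM at 3.9 mM and at 328 and 544 CPM at 11.1 mM, vehicle first here and below. The vehicle library at 11.1 mM was low and the other 3 were higher. The log2 ratio of imeglimin to vehicle at 11.1 mM was 0.73 (0.70 to 0.75), with the 95% counting interval in parentheses. Sars, the seryl enzyme (chr3:108424865-108445209), stood at 289 and 380.5 CPM at 3.9 mM and at 155 and 256 CPM at 11.1 mM. Its order of libraries was the same as for Eprs, and its log2 ratio at 11.1 mM was 0.73 (0.69 to 0.76).

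Rars, the arginyl enzyme of the complex (chr11:35808381-35834506), stood at 46.2 and 78.1 CPM at 3.9 mM and at 46.6 and 65.1 CPM at 11.1 mM. Both imeglimin libraries were above both vehicle libraries, with log2 ratios of 0.76 (0.69 to 0.82) at 3.9 mM and 0.48 (0.41 to 0.55) at 11.1 mM. Nars, the asparaginyl enzyme, stood at 188 and 221 CPM at 3.9 mM and at 144 and 197 CPM at 11.1 mM, with a log2 ratio at 11.1 mM of 0.45 (0.41 to 0.48). Iars, the isoleucyl enzyme of the complex, stood at 60.3 and 74.3 CPM at 3.9 mM and at 41.7 and 53.7 CPM at 11.1 mM, with a log2 ratio of 0.37 (0.29 to 0.44). Nars and Iars thus had, like Eprs and Sars, their lowest level in the vehicle library at 11.1 mM.

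At the low end of the same comparison Farsa, the catalytic subunit of the phenylalanyl enzyme, had a log2 ratio of -0.16 (-0.29 to -0.03). Qars, the glutaminyl enzyme, was at -0.04 (-0.17 to 0.08) and Dars, the aspartyl enzyme, at -0.01 (-0.07 to 0.05). Both intervals include 0. The enzymes of the multisynthetase complex did not share a ratio: Eprs, Rars and Iars lay above the median of all genes, while Lars, the leucyl enzyme (0.08), Kars, the lysyl enzyme (0.09), Qars and Dars lay below it. The 3 scaffold proteins of the complex had log2 ratios of 0.68 (Eef1e1), 0.39 (Aimp1) and 0.32 (Aimp2).

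Gars, the glycyl enzyme that 1 gene makes for both compartments, stood at 198 and 167 CPM at 3.9 mM and at 144 and 168 CPM at 11.1 mM, and its log2 ratio at 11.1 mM was 0.22 (0.18 to 0.26). Its highest library was vehicle at 3.9 mM. Aars, the alanyl enzyme, stood at 101 and 99.9 CPM at 3.9 mM and at 78.9 and 97.4 CPM at 11.1 mM, with a log2 ratio at 11.1 mM of 0.30 (0.25 to 0.36). With TMM scaling its vehicle library at 11.1 mM was low and the other 3 lay close together. Plain CPM moves the ratio at 3.9 mM by -0.31, so the 2 libraries at 3.9 mM were further apart there. Aars shares 1326 exonic bases with Exosc6 on the same strand. Exosc6 had no counts of its own in the kept cells, so any Exosc6 RNA within the Aars counts cannot be told apart.

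Among the mitochondrial genes 1 of 10 was at least 1.5-fold higher at 11.1 mM, against 6.0% of all genes, and 0 were lower by that much. With plain CPM, and with hormone and mitochondrially encoded genes left out, 0 were higher. Yars2, the tyrosyl enzyme, stood at 10.4 and 12 CPM at 3.9 mM and at 5.89 and 9.03 CPM at 11.1 mM, with a log2 ratio at 11.1 mM of 0.62 (0.44 to 0.80). Tars2, the threonyl enzyme, stood at 14.6 and 12.3 CPM at 3.9 mM and at 8.40 and 11.6 CPM at 11.1 mM, with a log2 ratio of 0.47 (0.31 to 0.62). Both had their lowest level in the vehicle library at 11.1 mM. Cars2, the cysteinyl enzyme, followed at 0.19 (0.07 to 0.31) and Nars2, the asparaginyl enzyme, at 0.11 (-0.02 to 0.24). Cars2 shares 422 exonic bases with Naxd on the opposite strand, which stood at 41.6 to 52.4 CPM. The imeglimin ratios of Naxd were 0.25 at 11.1 mM and -0.20 at 3.9 mM, where Cars2 was at -0.06.

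Lars2, the leucyl enzyme and the mitochondrial member with most UMIs, stood at 90.3 and 100.3 CPM at 3.9 mM and at 64.1 and 49.2 CPM at 11.1 mM. Its imeglimin library at 11.1 mM was the lowest, with a log2 ratio of -0.38 (-0.45 to -0.32). Hars2, the histidyl enzyme, was at -0.38 (-0.55 to -0.21). Ears2, the glutamyl enzyme that also starts the amidation route to mitochondrial glutaminyl-tRNA, was at -0.26 (-0.41 to -0.11). Iars2, the isoleucyl enzyme, was at -0.02 (-0.12 to 0.09). Hars2 shares 195 exonic bases with Hars on the opposite strand, and Ears2 shares 89 with Ubfd1, which had a log2 ratio of 0.07 at 11.1 mM. Whether the counting used strand is not given in the sources used here.

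At 3.9 mM glucose the ratios of imeglimin to vehicle were spread more widely in both directions. Of the 19 cytosolic genes 2 were at least 1.5-fold higher and 2 at least 1.5-fold lower, against 11.1% and 13.6% of all genes. Of the 10 mitochondrial genes 1 was higher and 1 lower by that much. The counts move with the scaling: plain CPM gave 1 cytosolic gene higher and 3 lower, and 0 mitochondrial genes higher and 4 lower. Without hormone and mitochondrially encoded genes the mitochondrial counts were 0 higher and 2 lower. Median log2 ratios were 0.11 for cytosolic, -0.23 for mitochondrial and 0.04 for all genes. With plain CPM, which moves every ratio by -0.31, they were -0.20, -0.54 and -0.27, and 10 genes with small ratios changed direction: Eprs, Farsa, Farsb, Hars, Iars, Nars, Tars, Yars, Lars2 and Yars2.

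Cars, the cysteinyl enzyme (chr7:143557230-143600090), stood at 42.7 and 80.5 CPM at 3.9 mM and at 32 and 33.4 CPM at 11.1 mM, vehicle first. The imeglimin library at 3.9 mM was the high one, with log2 ratios of 0.91 (0.85 to 0.98) at 3.9 mM and 0.06 (-0.02 to 0.14) at 11.1 mM. Sars followed Cars and Rars at 0.40 (0.37 to 0.43). Fars2, the mitochondrial phenylalanyl enzyme (chr13:36117412-36726280), stood at 25.9 and 40.1 CPM at 3.9 mM and at 14.3 and 14.9 CPM at 11.1 mM, with a log2 ratio at 3.9 mM of 0.63 (0.54 to 0.72). Fars2, like Cars, was highest in the imeglimin library at 3.9 mM. Exons of Fars2 overlap Lyrm4 on the other strand by 115 bases, and Lyrm4 had log2 ratios of 0.29 at 3.9 mM and 0.09 at 11.1 mM. For 11.1 against 3.9 mM glucose Lyrm4 was at -0.93 with vehicle and -1.13 with imeglimin, beside -0.86 and -1.42 for Fars2.

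Wars, the tryptophanyl enzyme and a known interferon-responsive gene (chr12:108860030-108894174), stood at 44.5 and 21.3 CPM at 3.9 mM and at 50.5 and 51.3 CPM at 11.1 mM. Only the imeglimin library at 3.9 mM was low, with a log2 ratio of -1.07 (-1.17 to -0.97). Vars, the valyl enzyme (chr17:35000987-35016322), stood at 33.3 and 18 CPM at 3.9 mM and at 23.3 and 25.7 CPM at 11.1 mM, with a log2 ratio at 3.9 mM of -0.89 (-1.0 to -0.78). Iars2 (chr1:185284726-185329396) stood at 21.6 and 10.4 CPM at 3.9 mM and at 21.5 and 21.2 CPM at 11.1 mM, with a log2 ratio at 3.9 mM of -1.05 (-1.19 to -0.90). For Vars and Iars2, too, the imeglimin library at 3.9 mM was the lowest of the 4. Iars2 shares 2034 exonic bases with Rab3gap2 on the opposite strand, and Rab3gap2 had a log2 ratio of -0.06 at 3.9 mM.

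Other genes were lower with imeglimin at 3.9 mM by less than 1.5-fold. Among cytosolic genes Qars was at -0.33 (-0.45 to -0.20), Lars at -0.27 (-0.32 to -0.23) and Gars at -0.25 (-0.28 to -0.21). Among mitochondrial genes Nars2 was at -0.47 (-0.63 to -0.31), Rars2 (arginyl) at -0.39 (-0.50 to -0.27), Ears2 at -0.33 (-0.46 to -0.20) and Tars2 at -0.25 (-0.39 to -0.10). Nars2 shares 284 exonic bases with C230038L03Rik on the opposite strand, which stood at 1.55 to 4.82 CPM, under the minimum of 5 CPM. The imeglimin ratios of C230038L03Rik were -0.56 at 3.9 mM and 1.64 at 11.1 mM, where Nars2 was at 0.11. For 11.1 against 3.9 mM glucose C230038L03Rik was at -1.18 with vehicle and 1.02 with imeglimin. Nars2 with vehicle stood at 13.4 CPM at 3.9 mM and 13.3 CPM at 11.1 mM. A minimum of 20 CPM, which the 3 genes Lars2, Fars2 and Rars2 met, turned the mitochondrial median to 0.15.

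The library with imeglimin at 3.9 mM also differed in other RNA. Of a list of 12 heat shock and cell dissociation genes 11 were compared. At least 1.5-fold higher than with vehicle were 9 and lower 0, against 11.1% and 13.6% of all genes. Their median log2 ratio was 1.18, beside 0.04 for all genes. At 11.1 mM the same list had a median of -0.14, with 0 genes higher and 5 lower, against 6.0% and 4.80% of all genes and a median of 0.10. Lowest were Hspa1b (-3.34) and Hspa1a (-3.02), the top genes of cluster 22, which had 122 of its 132 cells in the vehicle library at 11.1 mM. Beta-like cells made up 49.5% of the kept cells of the imeglimin library at 3.9 mM and 63.8% to 67.0% in the others. The part of these differences in the synthetase ratios at 3.9 mM was not tested.

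**Figure D2:**
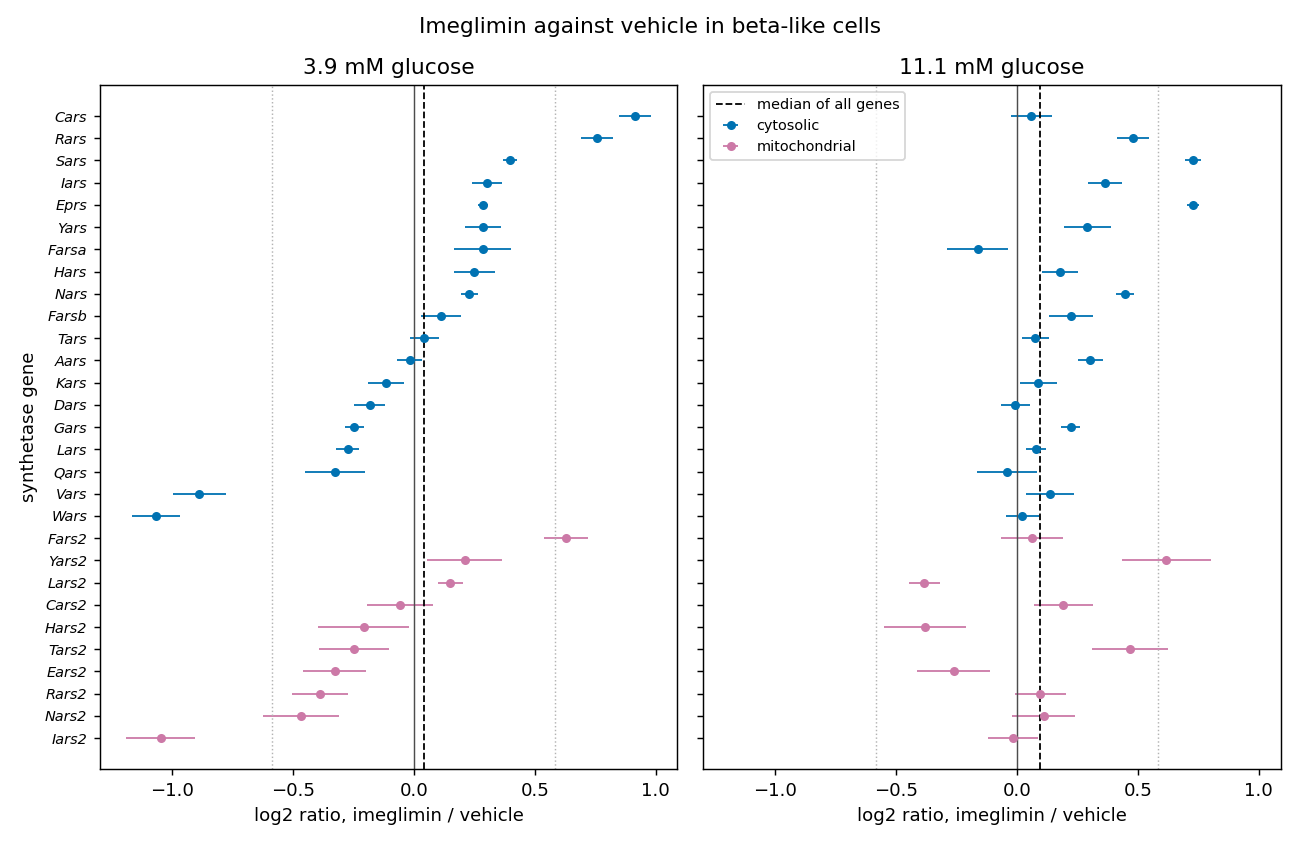
Log2 ratio of imeglimin to vehicle in beta-like cells at 3.9 mM (left) and 11.1 mM glucose (right) for 19 cytosolic (blue) and 10 mitochondrial (pink) synthetase genes, with 95% counting intervals, the median of all genes (dashed) and the 1.5-fold limits (dotted). At 3.9 mM the points run from -1.07 (Wars) to 0.91 (Cars), and at 11.1 mM from -0.38 (Lars2) to 0.73 (Eprs).

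Glucose was compared next, within each treatment. With vehicle, 14 of 19 cytosolic and 8 of 10 mitochondrial genes were lower at 11.1 than at 3.9 mM. Of all 9465 genes compared 38.8% were higher, so most genes were lower. At least 1.5-fold lower were 3 cytosolic and 4 mitochondrial genes, and 0 were higher by that much, against 18.6% of all genes lower and 9.36% higher. Median log2 ratios were -0.36 for cytosolic, -0.37 for mitochondrial and -0.14 for all genes. With hormone and mitochondrially encoded genes left out of the total these were -0.16, -0.17 and 0.06, and with plain CPM -0.74, -0.75 and -0.52. Each scaling moves all genes by 1 constant, so the gap to the median of all genes is the same in all of them, but the counts are not: with plain CPM 13 cytosolic and 6 mitochondrial genes were at least 1.5-fold lower. Without Lars2 the mitochondrial median was -0.24.

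The 3 cytosolic genes were Yars, the tyrosyl enzyme, Eprs and Sars. Yars stood at 43.7 and 53.3 CPM at 3.9 mM and at 23 and 28.1 CPM at 11.1 mM, vehicle first, and both libraries at 11.1 mM were low. The log2 ratio of 11.1 to 3.9 mM with vehicle was -0.93 (-1.01 to -0.84) for Yars, -0.91 (-0.93 to -0.89) for Eprs and -0.90 (-0.94 to -0.87) for Sars. Iars (-0.53) and Vars (-0.51) followed. Among mitochondrial genes Fars2 was at -0.86, Yars2 at -0.82, Tars2 at -0.80, Ears2 at -0.70 and Lars2 at -0.49. Lars (0.01), Dars (0.00) and Rars (0.01) had nearly the same TMM-scaled level at both glucose concentrations, although with plain CPM they were lower at 11.1 mM.

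With imeglimin the log2 ratios of 11.1 to 3.9 mM had medians of -0.14 for cytosolic, -0.03 for mitochondrial and -0.08 for all genes. At least 1.5-fold lower at 11.1 mM were 3 cytosolic and 3 mitochondrial genes, and 1 of each was higher, against 20.5% of all genes lower and 16.4% higher. With plain CPM 6 cytosolic genes were lower, and without hormone and mitochondrially encoded genes 2 cytosolic and 2 mitochondrial genes were higher. Cars (-1.27), Yars (-0.92) and Farsa (-0.66) were the lower cytosolic ones, with Sars at -0.57 and Iars at -0.47 next. Fars2 (-1.42), Lars2 (-1.03) and Ears2 (-0.63) were the lower mitochondrial ones. Wars (1.27) and Iars2 (1.02) were higher, followed by Nars2 at 0.57 and Vars at 0.51. These glucose ratios share their libraries with the imeglimin ratios above, so for Cars, Wars, Fars2 and Iars2 both rest on the imeglimin library at 3.9 mM.

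In alpha-like cells, the glucagon-producing class, the cytosolic genes summed to 1134 and 2117 CPM at 3.9 mM and to 1031 and 1384 CPM at 11.1 mM, vehicle first. The vehicle libraries were close to each other and both imeglimin libraries were above them. The log2 ratio of the sums was 0.90 (0.86 to 0.94) at 3.9 mM and 0.42 (0.37 to 0.48) at 11.1 mM. The mitochondrial genes without Lars2 summed to 193 and 196 CPM at 3.9 mM and to 187 and 191 CPM at 11.1 mM, with log2 ratios of 0.02 (-0.09 to 0.13) and 0.03 (-0.11 to 0.16). Both of these intervals include 0. With Lars2 the sums were 309 and 265 CPM at 3.9 mM and to 305 and 255 CPM at 11.1 mM, lower with imeglimin at both glucose levels, with log2 ratios of -0.22 (-0.31 to -0.13) and -0.25 (-0.37 to -0.14). The class held 635 and 1086 cells at 3.9 mM and 613 and 828 cells at 11.1 mM.

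Of the 19 cytosolic genes in alpha-like cells, 9 were at least 1.5-fold higher with imeglimin at 3.9 mM and 0 were lower, against 10.1% of the 8429 genes compared that were higher and 9.59% that were lower. Their median log2 ratio was 0.58, beside 0.02 for all genes. At 11.1 mM 5 of 19 were higher and 0 lower, against 6.77% and 5.75% of all genes, with a median of 0.27 beside 0.05. Of the 10 mitochondrial genes compared, 0 were higher and 2 lower at 3.9 mM, and 1 was higher and 1 lower at 11.1 mM, with medians of -0.02 and -0.03.

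The vehicle libraries of alpha-like cells differed little by glucose: 0 of the 19 cytosolic and 0 of the 10 mitochondrial genes were 1.5-fold apart, beside 0.973% of all genes higher and 1.31% lower at 11.1 mM. With imeglimin 9 of 19 cytosolic genes were at least 1.5-fold lower at 11.1 than at 3.9 mM and 0 were higher, against 3.64% of all genes lower and 3.30% higher. The mitochondrial count was 0 in both directions. These ratios share the imeglimin library at 3.9 mM with the ratios above.

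Sars in alpha-like cells stood at 94.6 and 279 CPM at 3.9 mM and at 74.2 and 169 CPM at 11.1 mM, vehicle first. Its log2 ratios of imeglimin to vehicle were 1.56 (1.43 to 1.69) at 3.9 mM and 1.19 (1.0 to 1.38) at 11.1 mM. Both imeglimin libraries were above both vehicle libraries. Aars stood at 39.6 and 119.7 CPM at 3.9 mM and at 37.1 and 62.3 CPM at 11.1 mM, with ratios of 1.6 (1.39 to 1.8) and 0.75 (0.47 to 1.03). Cars stood at 16.3 and 53.2 CPM at 3.9 mM and at 13.8 and 34.7 CPM at 11.1 mM, with ratios of 1.7 (1.39 to 2.03) and 1.33 (0.90 to 1.78). For both genes the order of libraries was that of Sars. Yars stood at 15.2 and 41.5 CPM at 3.9 mM and at 10.7 and 25.8 CPM at 11.1 mM, with ratios of 1.45 (1.12 to 1.79) and 1.27 (0.77 to 1.78). Nars stood at 75.5 and 175 CPM at 3.9 mM and at 64.4 and 110.5 CPM at 11.1 mM, with ratios of 1.21 (1.06 to 1.36) and 0.78 (0.57 to 0.99). These 5 genes were past 1.5-fold at both glucose levels in alpha-like cells, while in beta-like cells Sars was past it at 11.1 mM, Cars at 3.9 mM and the other 3 at neither.

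Eprs in alpha-like cells stood at 283 and 630.2 CPM at 3.9 mM and at 259.8 and 377 CPM at 11.1 mM, with ratios of 1.16 (1.08 to 1.24) and 0.54 (0.43 to 0.64). Iars (1.1), Tars, the threonyl enzyme (0.86), and Gars (0.70) were the others past 1.5-fold at 3.9 mM, and Lars at 0.58 was just short of it. Dars (-0.06), Farsa (0.04), Vars (0.04), Qars (0.19) and Kars (-0.19) had counting intervals that include 0. Wars was at -0.43 (-0.80 to -0.07).

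Lars2 in alpha-like cells stood at 115 and 68.2 CPM at 3.9 mM and at 118 and 65 CPM at 11.1 mM, vehicle first. Both imeglimin libraries were low, with log2 ratios of -0.76 (-0.92 to -0.60) and -0.86 (-1.06 to -0.66). Hars2 stood at 19.9 and 10.8 CPM at 3.9 mM and at 18.9 and 14.1 CPM at 11.1 mM, with ratios of -0.88 (-1.29 to -0.48) and -0.43 (-0.90 to 0.05). Yars2, the 1 mitochondrial gene past 1.5-fold upward at 11.1 mM, had ratios of 0.50 (0.02 to 0.98) and 0.61 (-0.02 to 1.27).

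**Figure D3:**
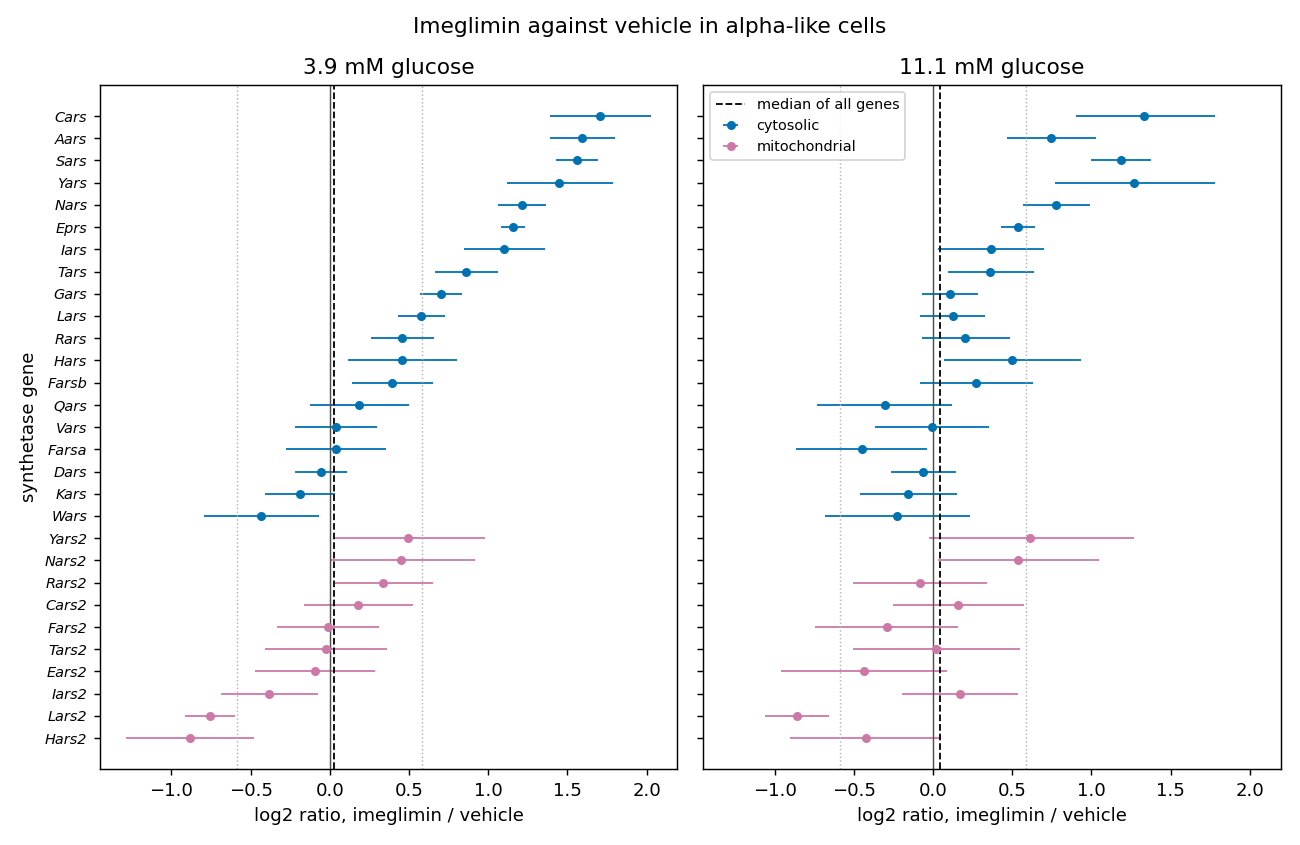
Log2 ratio of imeglimin to vehicle in alpha-like cells at 3.9 mM (left) and 11.1 mM glucose (right), with cytosolic genes in blue, mitochondrial genes in pink, 95% counting intervals, the median of all genes (dashed) and the 1.5-fold limits (dotted). At 3.9 mM 9 cytosolic genes and 0 mitochondrial genes lie past the upper 1.5-fold limit.

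Of the 12 cytosolic genes with a promoter window, the 5 with the element shown above were all at least 1.5-fold higher with imeglimin at 3.9 mM in alpha-like cells, with a median log2 ratio of 1.10, against 10.1% of all genes. The 7 without it had a median of 0.19, and 2 of them, Eprs and Sars, were past 1.5-fold. At 11.1 mM the counts were 2 of 5 and 1 of 7, against 6.77% of all genes. In beta-like cells the medians with and without the element were 0.04 and 0.11 at 3.9 mM and 0.29 and 0.09 at 11.1 mM. At 3.9 mM 0 of 5 and 0 of 7 were at least 1.5-fold higher, against 11.1% of all genes. At 11.1 mM the counts were 0 of 5 and 2 of 7, again Eprs and Sars, against 6.0% of all genes. In both groups 0 were lower by that much. These are descriptions of small groups.

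Alpha-like cells, too, clustered by treatment: cluster 7 held 96.5% of the vehicle cells at 3.9 mM, and cluster 4 held 97.3% and 93.7% of the imeglimin cells at 3.9 and 11.1 mM. In plain CPM the cytosolic sum in cluster 4 was 1976 with imeglimin at 3.9 mM (1057 cells) and 1351 at 11.1 mM (776 cells), and in cluster 7 it was 1182 with vehicle at 3.9 mM (613 cells) and 1092 at 11.1 mM (552 cells). The few vehicle cells of cluster 4 had 1297 at 3.9 mM (22 cells) and 1078 at 11.1 mM (61 cells). The few imeglimin cells of cluster 7 had 1446 at 3.9 mM (29 cells) and 1184 at 11.1 mM (52 cells). Insulin RNA was present in the class: Ins2 stood at 3077 and 8158 CPM at 3.9 mM and at 2754 and 2568 CPM at 11.1 mM, vehicle first. All 8 alpha markers were detected, with Gcg, which encodes glucagon, between 152960 and 171990 CPM. The part of these differences in the synthetase ratios was not tested.

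In delta-like cells, which make somatostatin, the cytosolic genes summed to 1503 and 2239.5 CPM at 3.9 mM and to 1379.5 and 1531 CPM at 11.1 mM, vehicle first, so the imeglimin library at 3.9 mM was the high one. All 17 cytosolic genes compared had ratios above 0 at 3.9 mM, against 57.5% of all genes. Their median log2 ratio was 0.54, beside 0.07 for all genes. At least 1.5-fold higher were 5 and lower 0, against 8.89% and 7.05% of the 6369 genes compared. Eprs led them at 1.03 (0.91 to 1.15). At 11.1 mM the median was -0.04, with 1 gene higher and 1 lower, against 4.21% and 4.98% of genes. By glucose 0 of 17 were higher or lower with vehicle (2.75% and 2.06% of genes), and 0 were higher and 7 lower at 11.1 mM with imeglimin (5.95% and 6.88%).

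In pp-like cells, which make pancreatic polypeptide, the cytosolic genes summed to 1058 and 1894 CPM at 3.9 mM and to 1026 and 1435 CPM at 11.1 mM, vehicle first, with a log2 ratio of 0.84 (0.75 to 0.93) at 3.9 mM and 0.48 (0.37 to 0.60) at 11.1 mM. Outside the endocrine classes the ratios of the cytosolic sums at 3.9 mM were 0.18 (0.10 to 0.27) in endothelial-like, 0.40 (0.25 to 0.56) in macrophage-like and -0.02 (-0.15 to 0.11) in stromal-like cells. At 11.1 mM they were -0.06 (-0.15 to 0.03), -0.27 (-0.45 to -0.08) and 0.00 (-0.13 to 0.12). At 3.9 mM the alpha-, delta- and pp-like values were above these 3, and the beta-like value of 0.17 (0.16 to 0.18) was not. That beta-like value turns below 0 in plain CPM, as the sums above show.

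**Figure D4:**
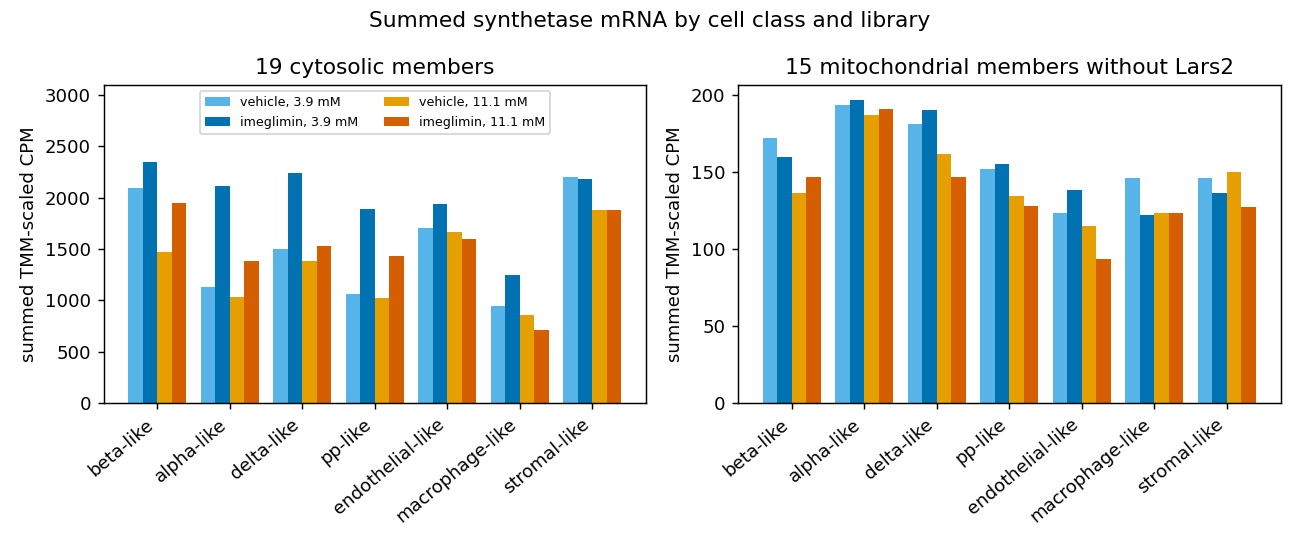
Summed TMM-scaled CPM of the cytosolic genes (left) and of the mitochondrial genes without Lars2 (right) in 7 cell classes, 1 bar per library, each class scaled on its own. In alpha-, delta- and pp-like cells the cytosolic bar for imeglimin at 3.9 mM is the highest of the 4 (2117, 2239.5 and 1894 CPM), while the mitochondrial bars of alpha-like cells lie between 187 and 196 CPM.

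Several genes had different directions by class at 3.9 mM, and these differences were not tested. Wars had a log2 ratio of -1.07 in beta-like, -0.43 in alpha-like and 0.54 (-0.01 to 1.1) in delta-like cells. Vars was at -0.89 in beta-like, 0.04 in alpha-like and 0.76 (0.24 to 1.28) in delta-like cells. Lars was at -0.27, 0.58 and 0.58 in the same order. Sars, Eprs, Cars, Rars, Nars, Iars and Yars were above 0 in all 3 classes, although in beta-like cells Eprs, Nars, Iars and Yars turn below 0 with plain CPM.

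Single cells were thinned to 3000 UMIs each to set their synthetase RNA side by side. The median beta-like cell then had 8 and 7 cytosolic synthetase UMIs at 3.9 mM and 4 and 5 at 11.1 mM, vehicle first. The 10th and 90th percentiles were 4 and 12 with vehicle at 3.9 mM, and 1 and 7 with vehicle at 11.1 mM, so the ranges overlapped. In alpha-like cells the medians were 3 and 6 at 3.9 mM and 3 and 4 at 11.1 mM. Insulin UMIs count toward the 3000, and 29 to 91 beta-like and 27 to 46 alpha-like cells per library were shallower and were left out.

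**Figure D5:**
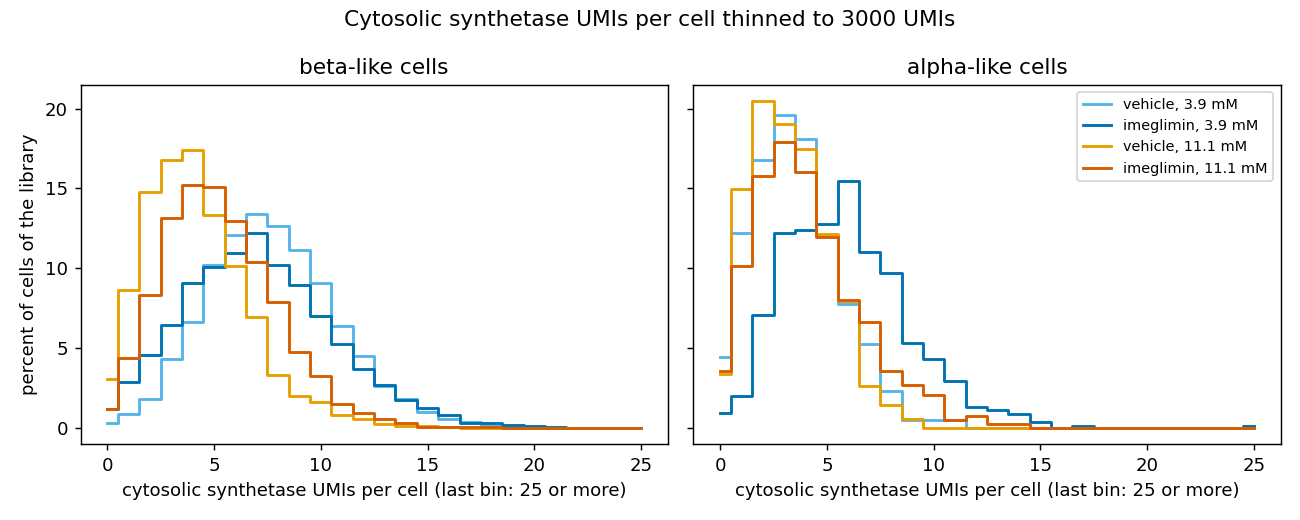
Percent of beta-like (left) and alpha-like cells (right) of each library by their number of cytosolic synthetase UMIs, after thinning each cell to 3000 UMIs. Beta-like cells at 3.9 mM (medians 8 and 7) lie right of those at 11.1 mM (4 and 5), and alpha-like cells with imeglimin at 3.9 mM (median 6) lie right of the other 3 libraries.

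Other genes of the pathway are given from lists grouped by function, which were also chosen with earlier results of these data known. Of 11 ATF4 pathway factors, 7 in beta-like cells were at least 1.5-fold higher with imeglimin at 11.1 mM and 0 lower, with a median log2 ratio of 0.71, against 6.0% of all genes higher and a median of 0.10. Ddit3, which encodes the stress factor CHOP, stood at 1164 and 1895 CPM at 3.9 mM and at 125 and 392 CPM at 11.1 mM, vehicle first. Trib3, a pseudokinase of the same pathway, stood at 127 and 127 CPM at 3.9 mM and at 25.8 and 78.9 CPM at 11.1 mM. For both, as for Eprs and Sars, the lowest library was vehicle at 11.1 mM. At 3.9 mM 3 of the 11 were higher and 1 lower, with a median of 0.24, against 11.1% and 13.6% of all genes and a median of 0.04.

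In alpha-like cells 10 of these factors were compared, and 7 were at least 1.5-fold higher at 3.9 mM and 6 at 11.1 mM, with medians of 1.73 and 1.13, against 10.1% and 6.77% of all genes and medians of 0.02 and 0.05. Ddit3 stood there at 75 and 583 CPM at 3.9 mM and at 28.2 and 175 CPM at 11.1 mM. Asns, which makes asparagine, stood at 49.3 and 209 CPM at 3.9 mM and at 45.1 and 92.4 CPM at 11.1 mM. In both, each imeglimin library was above both vehicle libraries. Of 7 amino acid enzymes of the pathway 6 were higher at 3.9 mM, with a median of 2.68, beside a median over 8 such genes of 0.15 in beta-like cells. The heat shock and dissociation list had medians of 0.70 at 3.9 mM and 0.38 at 11.1 mM in alpha-like cells. The part of any of these genes in the synthetase ratios was not tested.

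The 5 cytosolic elongation genes, which bring charged tRNAs to the ribosome or move it along, had median log2 ratios of 0.28 at 11.1 mM and 0.22 at 3.9 mM in beta-like cells, and 0.32 and 0.57 in alpha-like cells. In the same order the medians of all genes were 0.10 and 0.04 in beta-like cells, and 0.05 and 0.02 in alpha-like cells. The 3 scaffold genes had medians at 3.9 mM of 0.61 in beta-like and 0.46 in alpha-like cells. The 14 genes of mitochondrial tRNA completion and translation had medians of 0.13 at 11.1 mM and 0.06 at 3.9 mM in beta-like cells, with Lrpprc, which binds mitochondrial mRNA, at -0.96 at 3.9 mM. The 13 proteins encoded in mitochondrial DNA had medians of 0.01 at 11.1 mM and 0.03 at 3.9 mM for imeglimin. For 11.1 against 3.9 mM glucose their medians were 0.73 with vehicle, where 13 of 13 were above 0, and 0.58 with imeglimin, where 12 were. Of all genes compared, 38.8% and 45.1% were above 0, with medians of -0.14 and -0.08. The mitochondrial synthetase medians in those glucose comparisons were -0.37 and -0.03.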

How the data were processed

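Deposited count matrices (raw UMI counts per gene and barcode, made by the authors) of the 4 libraries were used. Per the submitters' processing notes, reads were processed with Cell Ranger 6.0.2 on mm10; strand use in counting is not given in the sources used here. Kept barcodes had 1000 UMIs and 500 genes or more, and a mitochondrial share up to 20%. Cells were clustered with scanpy 1.11.5 (2000 variable genes, 30 components, 15 neighbours, Leiden resolution 1, no integration) and named from markers. Scrublet called 0 doublets at expected rates of 5.73% to 7.00%, so it did not work. Cells with over 3% insulin UMIs outside beta-like cells, or over 1% of another hormone that was checked, were dropped. Checked were Gcg, Sst and Ppy in beta-like, Sst in alpha-like and pp-like, and Gcg in delta-like cells. Ppy was thus not checked in alpha-like and delta-like cells, nor Gcg in pp-like cells. UMIs were summed per class and library, scaled by TMM (edgeR 4.0.16) within each class and given as CPM. Genes averaging at least 5 CPM (beta-like), 10 CPM (alpha-like) or 20 CPM (delta-like) were compared, and 1.5-fold is a measure of size. With 1 library per condition there is no test. The 95% intervals are exact (Poisson for levels, Clopper-Pearson for ratios) and describe counting error alone. The ratio code was tested on simulated data. Gene models were GENCODE vM21 on GRCm38. BLAST of member transcripts found 0 pairs with 50 or more bases at 95% identity or above.

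Members were found by symbol alone, but this gene family, the lists and the alternatives were chosen with earlier results of these data known. All members are accounted for. Named in full are, in each beta-like comparison and group, up to 5 highest and 5 lowest ratios whose sign is shared by plain CPM and by per-cell means. In other classes names were chosen after their values were seen. Alternatives were plain CPM, CPM without hormone and mitochondrially encoded genes, per-cell means, deeper or thinned cells, doublet scores, cluster resolution, a higher minimum level and a 2-fold limit.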

Additional observations from a re-analysis of the deposited data

Results flagged for a closer look

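Tars2 had imeglimin ratios with counting intervals on opposite sides of 0 at the 2 glucose levels in beta-like cells, under all 3 scalings. Its log2 ratio was 0.47 at 11.1 mM and -0.25 at 3.9 mM, a difference of 0.71. Gars and Lars had intervals on opposite sides of 0 in alpha-like and beta-like cells at 3.9 mM, again under all 3 scalings. Gars was 0.95 higher in alpha-like cells on the log2 scale (0.70 against -0.25), and Lars was 0.85 higher (0.58 against -0.27). None of these differences was tested, as each condition is 1 library.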

How the results depend on the processing

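All 51 member ratios of at least 1.5-fold in beta-like and alpha-like cells kept their sign in the 402 recomputed values, over every alternative run for their class. In beta-like cells plain CPM and CPM without hormone genes could not turn these signs, because their largest shift, -0.38, is short of 1.5-fold. Many other alternatives reuse most of the same cells. Of the recomputed medians, differences and counts, 192 kept their value within counting error or 1.5 times, 34 moved and 6 reversed. No alpha-like or delta-like median moved beyond counting error. The other medians here are for beta-like cells. Plain CPM gave cytosolic medians of -0.20 (imeglimin, 3.9 mM), -0.74 (glucose, vehicle) and -0.27 (glucose, imeglimin), and mitochondrial medians of -0.54 and -0.75 for the first and second of these. Without hormone and mitochondrially encoded genes in the total, cytosolic medians were -0.016 (imeglimin, 11.1 mM), -0.045 (imeglimin, 3.9 mM), -0.16 (glucose, vehicle) and 0.019 (glucose, imeglimin), and mitochondrial medians -0.12, -0.38, -0.17 and 0.13. These scalings move all genes alike. For imeglimin at 11.1 mM the cytosolic median was 0.079 with per-cell means and 0.082 with thinned cells, and for glucose with vehicle per-cell means gave -0.23 for both groups. For glucose with imeglimin, restricting to cells of 10000 UMIs or more with a mitochondrial share up to 5% gave -0.062. A minimum of 20 CPM gave mitochondrial medians of 0.15 (imeglimin, 3.9 mM), -0.49 (glucose, vehicle) and -1.03 (glucose, imeglimin), and differences of cytosolic from mitochondrial medians of -0.039 (imeglimin, 3.9 mM) and 0.89 (glucose, imeglimin). It leaves 3 mitochondrial genes. Alternatives chosen after seeing the data were leaving out Lars2, which gave -0.24 for glucose with vehicle, keeping cells over a hormone limit, the largest clusters alone, and most alternatives for alpha-like and delta-like cells.

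With a 2-fold limit, genes higher and lower in beta-like cells numbered 96 and 147 for imeglimin at 11.1 mM, 217 and 453 at 3.9 mM, 332 and 538 for glucose with vehicle, and 648 and 679 with imeglimin. Members higher by 2-fold were then 0 for imeglimin at either glucose level. Cytosolic members lower were 1 (Wars) for imeglimin at 3.9 mM, 0 for glucose with vehicle and 1 (Cars) with imeglimin, and mitochondrial ones lower were 1 (Iars2), 0 and 2 (Fars2 and Lars2) in the same order. For glucose with imeglimin Wars and Iars2 were higher by 2-fold. No paired analysis was possible because each condition is 1 library. For the 6 mitochondrial genes under the minimum level, depth limits the ratios.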

Other observations

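Lars2 was also high in cells outside the named classes. A cluster of 322, 946, 47 and 58 cells (vehicle then imeglimin at 3.9 mM, then at 11.1 mM) had few UMIs, 11.3% to 13.6% of them mitochondrially encoded, and stayed unnamed. Lars2 stood there at 304, 285, 250 and 795 plain CPM in the same order, from 218, 489, 21 and 116 UMIs, against 110, 98.3, 59.8 and 44.2 plain CPM in beta-like cells. The other mitochondrial genes together stood there at 286, 219, 214 and 116 plain CPM, against 209, 157, 127 and 131 plain CPM in beta-like cells. In beta-like cells 2.03% to 2.59% of UMIs were mitochondrially encoded.

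The smaller beta-like clusters differed in the cytosolic sum. Cluster 15 was low in each of the 3 libraries where it held at least 50 cells, at 537 plain CPM with imeglimin at 3.9 mM and at 506 and 849 plain CPM at 11.1 mM with vehicle and imeglimin. Ins1 and Ins2 were the genes most raised in cluster 15, and insulin UMIs count toward the plain CPM total. The mitochondrial genes without Lars2 were low there too, at 31.2, 48.8 and 59.6 plain CPM in the same order. The part of insulin RNA in these low sums was not tested. Cluster 6 had 2260.5 plain CPM with vehicle at 3.9 mM, and 1637 and 1799 plain CPM at 11.1 mM with vehicle and imeglimin. The 3610 cells of cluster 17, most of the beta-like cells with vehicle at 11.1 mM, had 1280 plain CPM. The 205 cells of cluster 17 with imeglimin at 11.1 mM had 1345 plain CPM. Cluster 18 at 11.1 mM had 1686 plain CPM with vehicle (571 cells) and 1726 with imeglimin (2243 cells). The part of cluster make-up in the class ratios was not tested.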
